A study of Homo sapiens with 6 samples.

Results

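CDKN1A, MDM2, GADD45A, SESN1, SESN2, BBC3, BAX, FAS and ZMAT3 are stress response genes of human cells, and all 9 were found by their gene symbol among the 20745 genes of the authors' deposited table. The genes were chosen by their symbols, by a choice that was made with results of the levamisole comparison in these cultures already known. Those results and the pooled levels described here come from the same data, so the choice may not be independent of level. Whether it favoured genes with high levels was not tested.

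RNA was sequenced from conditionally immortalized human podocytes of the line AB 8/13, which divide at a permissive temperature and differentiate at a restrictive one. After differentiation, 3 cultures received vehicle and 3 received levamisole at 1 µM, all for 24 h, and the paper's methods place the replicates of each group in different passages of this single line. Levamisole was developed against parasitic worms and is given to children with nephrotic syndrome to limit their exposure to steroids. The labels describe the vehicle and the levamisole cultures as serum-free, whereas the paper's methods describe vehicle cultures in complete medium.

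Cells that sense DNA damage or a shortage of nutrients slow their cycle, repair the damage and lower their growth signals, or enter apoptosis when the damage is too great. CDKN1A and the GADD45 proteins act in cycle arrest, the sestrins lower the activity of the growth kinase complex mTORC1, MDM2 marks proteins for degradation, and BAX, BBC3 and FAS act in cell death. ZMAT3 is a zinc finger protein that binds RNA. Podocytes are terminally differentiated cells of the kidney glomerulus that divide little once mature, which is why regulators of arrest and death are of interest in them.

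The level available for each gene is the base mean of the authors' deposited table, which is the mean of normalized read counts over the libraries of their fit. It pools vehicle and levamisole cultures in 1 value. It therefore has no replicate error, and the order of the genes is given without a test. The depth per library is not known. More RNA per cell and more cells that express a gene cannot be told apart in such bulk RNA. The effect of levamisole on these genes was not analysed here, because the other measured columns of the table hold only the authors' own comparison. Levels of different genes were compared per kilobase of the longest annotated transcript. The undivided base mean is given beside them, since the adapted CEL-seq protocol reads mostly the 3′ ends of transcripts and counts then depend little on length.

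All 9 genes were detected, which means here a base mean of at least 5. In the table as a whole, 13336 genes (64.3%) reached that level. The median of the 9 base means was 459, whereas the median over the 13285 detected genes with an annotated length was 83.1. Per kilobase, the median of the 9 genes was 77.7 and that of the detected genes was 21.7. All 9 genes lay above the median of the detected genes on either scale. Together they took 0.205% of the summed base means, or 0.314% when the 22 mitochondrially encoded genes (34.8% of the sum) were left out. CDKN1A alone made up 63.2% of the sum of the 9 genes and GADD45A 12.1%.

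**Figure D1:**
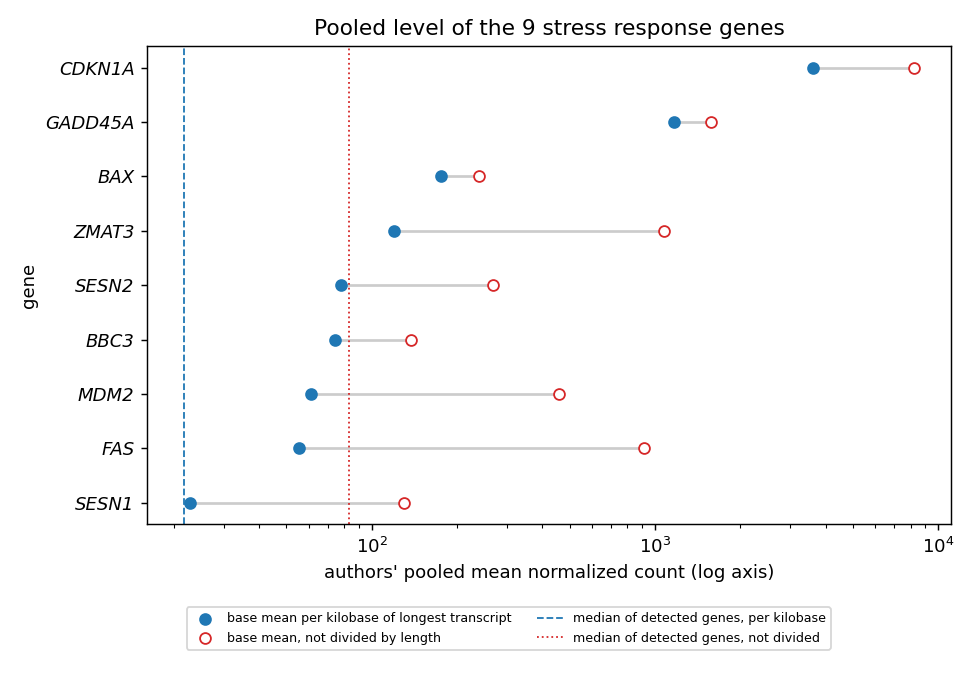
Pooled level of each gene as base mean per kilobase of the longest transcript (filled points) and as undivided base mean (open points), on a log axis. Points are the authors' means with no error, the vertical lines are the medians of the detected genes (21.7 per kilobase and 83.1 undivided), and CDKN1A and GADD45A are highest on either scale.

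CDKN1A encodes p21, an inhibitor of cyclin-dependent kinases that holds cells before DNA replication. CDKN1A (ENSG00000124762, chromosome 6 of GRCh38, 36676460 to 36687337, plus strand) had a base mean of 8222, which placed it at rank 49 of all genes in the table. Its level per kilobase was 3627, higher than that of 99.6% of the detected genes. The other inhibitors of the same family were lower. CDKN1C, which encodes p57, a kinase inhibitor known in mature podocytes, had a base mean of 1019 and a level per kilobase of 526. CDKN1B, which encodes p27, had 244 and 56.3. The level of CDKN1A was 6.89 times that of CDKN1C per kilobase and 8.07 times undivided. Against CDKN1B the factor was 64.4 per kilobase and 33.7 undivided.

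The list of cell cycle inhibitors has 13 genes and also holds other stress response genes, among them CCNG1 and PLK2. All 13 were detected, and all 13 lay above the median level per kilobase of the detected genes. CDKN2A, whose transcripts encode p16 and a second protein in another reading frame, had the highest base mean of this list (9702), and CDKN2D had the lowest (35.0). CDKN2A was thus the only gene of the list above CDKN1A, by a factor of 1.18 in undivided base means and of 2.54 per kilobase. CCNG1, a cyclin of the stress response, had a base mean of 1522, and PLK2, a stress-induced kinase, had 867.

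GADD45A encodes a small protein that binds PCNA and kinases and takes part in arrest and repair after DNA damage. GADD45A (ENSG00000116717, chromosome 1, 67685201 to 67688334, plus strand) had a base mean of 1573, rank 421 of the table. Its level per kilobase was 1163, higher than that of 98.6% of the detected genes, and CDKN1A exceeded it by a factor of 3.12 on this scale and of 5.23 undivided. Its relative GADD45B had a base mean of 148 and a level per kilobase of 73.6. The level of GADD45A was 15.8 times that of GADD45B per kilobase and 10.6 times undivided. GADD45G has no row in the authors' deposited table. GADD45GIP1, which encodes a protein that binds the GADD45 proteins, had a base mean of 190.

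SESN2 and SESN1 encode sestrins, which bind the GATOR2 complex and lower mTORC1 activity when nutrients are scarce or cells are stressed. SESN2 (ENSG00000130766, chromosome 1, 28259518 to 28282491, plus strand) had a base mean of 269 and a level per kilobase of 77.7, above 77.9% of the detected genes. SESN1 (ENSG00000080546, chromosome 6, 108984309 to 109094846, minus strand) had a base mean of 130 and a level per kilobase of 22.9. SESN1 was the lowest of the 9 genes on these scales and lay close to the middle of the detected genes, above 51.3% of them per kilobase. The third sestrin, SESN3, had a base mean of 10.8 and a level per kilobase of 1.13. Per kilobase, SESN2 was 3.39 times as high as SESN1, and SESN1 was 20.3 times as high as SESN3 (12.0 times undivided). The order of the 3 sestrins was the same in undivided base means, where SESN2 was 2.07 times as high as SESN1. It turned around for these 2 genes when the median transcript length was used, with 141 per kilobase for SESN1 and 77.7 for SESN2.

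Of the 15 genes listed as sestrins and the complexes they act on, all had a row and 12 were detected. SEH1L, a subunit that GATOR2 shares with the nuclear pore, had the highest base mean (499). SEC13, which GATOR2 shares with the coat of transport vesicles, had 189, and MIOS, a subunit of GATOR2, had 86.9. CASTOR1, an arginine sensor, had the lowest (0.647), and a neighbouring gene transcribed from the same strand has exons over 75.8% of its last 500 exonic bases. The other genes below 5 were CASTOR2, with a base mean of 0.964, and the GATOR2 subunit WDR24, with 4.94. Of the 15 genes, 5 lay above the median level per kilobase of the detected genes, and SESN1 and SESN2 are among the 5.

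MDM2 encodes a ubiquitin ligase that limits the stress response through feedback. MDM2 (ENSG00000135679, chromosome 12, 68808177 to 68845544, plus strand) had a base mean of 459 and a level per kilobase of 61.3, above 73.6% of the detected genes. The undivided level of MDM2 was above that of 86.4% of them. Its partner MDM4 had a base mean of 75.9 and a level per kilobase of 7.55, so that MDM2 was 8.11 times as high per kilobase and 6.05 times undivided. The 8 genes listed with MDM2 as ubiquitin and phosphatase regulators were all detected. TRIAP1, a small protein of the mitochondrial intermembrane space, had the highest base mean (807), and the ubiquitin ligase COP1 the lowest (71.2). The phosphatase gene PPM1D lay close to MDM2 per kilobase, with 60.6.

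BAX encodes a protein that forms pores in the outer mitochondrial membrane, and BBC3 encodes PUMA, a protein that frees BAX from its inhibitors. BAX (ENSG00000087088, chromosome 19, 48954815 to 48961798, plus strand) had a base mean of 239 and a level per kilobase of 176, behind only CDKN1A and GADD45A among the 9 genes and above 89.2% of the detected genes. In undivided base means BAX was at place 7 of the 9 genes and above 74.6% of the detected genes. BBC3 (ENSG00000105327, chromosome 19, 47220822 to 47232766, minus strand) had a base mean of 137 and a level per kilobase of 74.3. BAX was 2.36 times as high as BBC3 per kilobase and 1.74 times undivided. BAK1, which encodes the other pore-forming protein, had a base mean of 13.3, and BAX was 29.3 times as high per kilobase and 18.0 times undivided. Of the 13 genes listed with the BCL2 family, 12 were detected. The survival gene BCL2L1 had the highest base mean (1318), and it was 2.30 times as high as BAX per kilobase and 5.52 times undivided. The survival gene BCL2 had a base mean of 66.9. HRK, which promotes death mainly in neurons, had the lowest (1.17). PMAIP1, which encodes NOXA, was 1.83 times as high as BBC3 per kilobase and 1.88 times undivided.

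FAS encodes the death receptor that binds FAS ligand. FAS (ENSG00000026103, chromosome 10, 88953813 to 89029605, plus strand) had a base mean of 912, behind CDKN1A, GADD45A and ZMAT3, but a level per kilobase of 55.3, which only SESN1 fell below. Undivided, FAS lay above 93.6% of the detected genes, against 71.5% per kilobase. Its longest annotated transcript has 16484 bases, the most of the 9 genes, and its place in the order therefore depends on the division by length. Of the 11 genes listed with the death receptors, 10 had a row and 9 were detected. CASP8, the caspase that FAS activates, had the highest base mean (1100), and FADD, the adaptor between them, had 29.5. The decoy receptor gene TNFRSF10C had the lowest (4.83), and the gene of the ligand, FASLG, has no row in the authors' deposited table. The exons of another gene on the other strand cover 82.2% of the last 500 exonic bases of FADD.

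ZMAT3 (ENSG00000172667, chromosome 3, 178960121 to 179072215, minus strand) had a base mean of 1074, behind CDKN1A and GADD45A, and a level per kilobase of 120, behind these and BAX and above 84.7% of the detected genes. Undivided, ZMAT3 lay above 94.7% of them. In the list of RNA binding and metabolic genes of the stress response, ZMAT3 had the highest base mean. GLS2, a mitochondrial glutaminase, had the lowest (9.55). Of the 6 genes of this list, 5 had a row and all 5 were detected, and SCO2, which is needed to assemble cytochrome oxidase, has none. Of 8 genes listed for DNA repair and nucleotide supply, 7 were detected. The ribosomal protein gene RPS27L had the highest base mean (3669), and PCNA, the sliding clamp of DNA polymerase that p21 binds, had 2276. ERCC5, a nuclease of nucleotide excision repair, had the lowest (0.441), and exons of the readthrough gene BIVM-ERCC5 on the same strand cover 99.8% of its last 500 exonic bases.

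**Figure D2:**
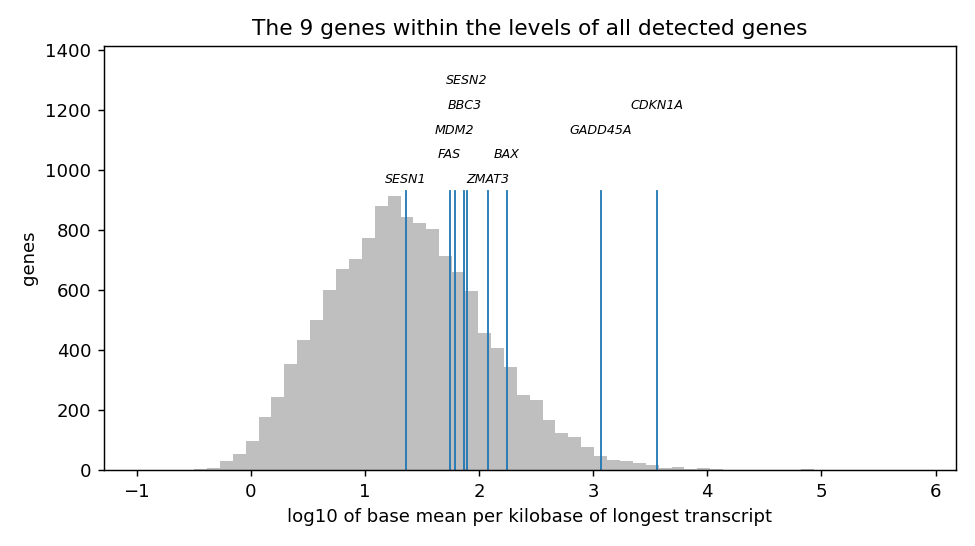
Number of detected genes (vertical axis) by log10 of base mean per kilobase of the longest transcript (horizontal axis), with a line at each of the 9 genes. The lines of GADD45A and CDKN1A stand in the upper tail at 1163 and 3627 per kilobase, SESN1 stands near the middle at 22.9, and the other 6 lie from 55.3 to 176.

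On the scale per kilobase the order from high to low was CDKN1A, GADD45A, BAX, ZMAT3, SESN2, BBC3, MDM2, FAS and SESN1. In undivided base means it was CDKN1A, GADD45A, ZMAT3, FAS, MDM2, SESN2, BAX, BBC3 and SESN1. The places of CDKN1A, GADD45A and SESN1 were thus the same on these scales, and those of the other 6 genes changed. With the median instead of the longest transcript length, CDKN1A and GADD45A were again highest, in this order, while SESN2 was lowest, below BBC3 and SESN1. On that scale MDM2 was at place 3, with 493 per kilobase, and FAS at place 6, with 349. No spread over cultures is known for any of these values, so neighbours in the order could not be compared with replicate error.

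Outside the 9 genes, the lists hold 69 different relatives, of which 66 had a row and 60 were detected. The median base mean of the 66 was 112. Per kilobase, 41 of the 66 lay above the median of the detected genes. No base of the last 500 exonic bases of any of the 9 genes overlaps an exon of any other gene, whatever its strand, in GENCODE 44. The check takes the outermost bases over all annotated transcripts of a gene, so transcript ends further inside the gene were not checked. Over all 75 listed genes with a row, the 9 included, 4 had an end that shares bases with a same-strand neighbour and 15 had one that shares bases with a gene of the opposite strand. Counts of the 4 genes with same-strand overlap are less certain, because reads from overlapping genes may be left uncounted or be assigned to the other gene. Whether exons on the opposite strand affected the counts was not tested.

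**Figure D3:**
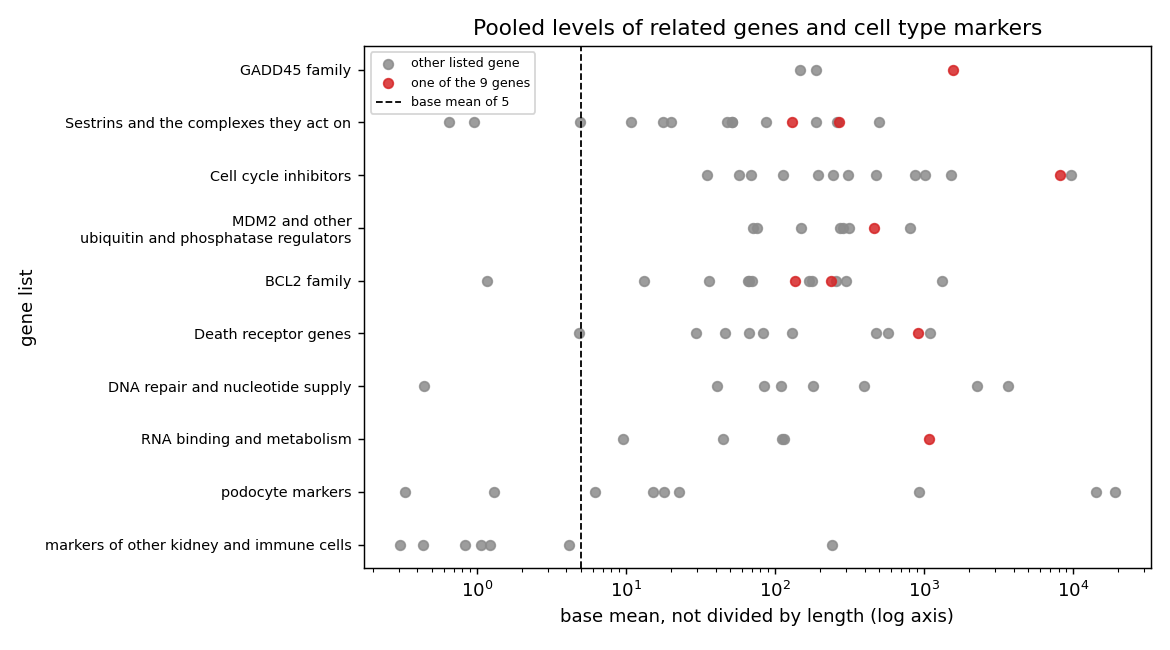
Undivided base mean (log axis) of each listed gene with a row in the table, by list, with the 9 genes in red and a dashed line at a base mean of 5. Of the 69 relatives 60 were detected, and the markers of other kidney and immune cells lie below 5 except AQP1 at 243.

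The labels name the cells human kidney podocytes. Of 12 podocyte markers, 9 had a row and 7 were detected. VIM and ACTN4, which many cultured cells also express, had base means of 19062 and 14320, and CD2AP, an adaptor of the slit diaphragm, had 929. The podocyte transcription factor WT1 had a base mean of 6.21, SYNPO 22.8 and PODXL 15.3. PTPRO, a phosphatase of the podocyte surface, was below 5, with a base mean of 0.333. NPHS1, the gene of the slit diaphragm protein nephrin, and the transcription factor gene LMX1B have no row. Of 10 markers of endothelial, mesangial, tubular and immune cells, 7 had a row and 1 was detected, the water channel gene AQP1 with a base mean of 243, and the endothelial cadherin gene CDH5 was lowest, at 0.306. The part of the cell state in the levels of the 9 genes was not tested.

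RefSeq promoter windows on GRCh38.p14, which run from 250 bases before to 50 bases after a transcription start, were found for 8 of the 9 genes, and not for GADD45A. The 8 genes have 16 windows between them. The windows of the 4 genes with a single window are shown here because no choice between windows was needed. A single window does not mean a single start. CDKN1A, BAX and BBC3 have 8, 12 and 6 annotated transcripts, and the annotated CDKN1A gene begins upstream of its window. The windows shown span the most abundant of the 9 transcripts (CDKN1A), a sestrin (SESN2) and the mitochondrial death genes (BAX and BBC3). Each runs 5′ to 3′ on the strand of the gene, and capitals mark the letters GGGCGG (the GC box) or CCAAT (the CCAAT box) on either strand. The CDKN1A window lies at chr6:36678464-36678763 (plus strand), that of SESN2 at chr1:28259268-28259567 (plus strand), that of BAX at chr19:48954625-48954924 (plus strand) and that of BBC3 at chr19:47232618-47232917 (minus strand).
CDKN1A: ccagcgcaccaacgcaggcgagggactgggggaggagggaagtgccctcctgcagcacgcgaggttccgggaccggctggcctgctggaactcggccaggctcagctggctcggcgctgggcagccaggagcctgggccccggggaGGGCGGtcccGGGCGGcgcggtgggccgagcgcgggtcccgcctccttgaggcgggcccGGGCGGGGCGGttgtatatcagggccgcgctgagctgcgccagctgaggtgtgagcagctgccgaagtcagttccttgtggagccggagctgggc
SESN2: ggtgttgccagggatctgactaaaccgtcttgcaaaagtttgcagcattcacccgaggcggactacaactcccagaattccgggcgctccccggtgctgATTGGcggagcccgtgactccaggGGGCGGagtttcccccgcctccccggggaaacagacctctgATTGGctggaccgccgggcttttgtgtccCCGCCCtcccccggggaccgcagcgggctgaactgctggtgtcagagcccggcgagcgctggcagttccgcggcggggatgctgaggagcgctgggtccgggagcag
BAX: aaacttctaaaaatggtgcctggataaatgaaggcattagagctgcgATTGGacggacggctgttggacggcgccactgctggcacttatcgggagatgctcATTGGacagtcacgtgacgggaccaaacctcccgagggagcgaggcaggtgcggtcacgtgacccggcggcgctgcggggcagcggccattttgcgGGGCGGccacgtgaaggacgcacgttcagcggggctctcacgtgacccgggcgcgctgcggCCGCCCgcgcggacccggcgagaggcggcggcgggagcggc
BBC3: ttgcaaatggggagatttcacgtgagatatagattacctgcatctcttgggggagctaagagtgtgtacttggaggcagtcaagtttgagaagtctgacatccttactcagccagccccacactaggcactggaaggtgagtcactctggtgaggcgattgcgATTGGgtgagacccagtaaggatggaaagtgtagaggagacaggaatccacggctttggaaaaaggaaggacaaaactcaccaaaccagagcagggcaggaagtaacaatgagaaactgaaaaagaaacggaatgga

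The CDKN1A window holds 4 matches to GGGCGG, 2 of which overlap by a base, and no match to CCAAT. SESN2 and BAX hold 2 matches to each of the motifs. BBC3 holds 1 match to CCAAT and none to GGGCGG. The windows hold 29 CpG dinucleotides in CDKN1A, 38 in BAX, 25 in SESN2 and 5 in BBC3, and the median over all 35116 RefSeq windows of this length was 14. Of the 16 windows of the 8 genes, 14 held GGGCGG, 10 held CCAAT and 0 held TATAAA. Some of these windows overlap, since starts of a gene can lie close together, and the same match can then be counted in several windows. Counted by gene, 7 of the 8 held GGGCGG in at least 1 window, 6 held CCAAT and 0 held TATAAA. In all RefSeq windows, searched on both strands, the shares were 45.0% for GGGCGG, 34.6% for CCAAT and 11.5% for TATAAA. The matches are letters in these windows and were not compared with the levels.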

How the data were processed

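Total RNA of 6 cultures was extracted, and its mRNA was sequenced with a protocol adapted from CEL-seq. The authors trimmed reads with Trim Galore 0.4.5 (cutadapt 1.18, FastQC 0.11.8), mapped them with STAR 2.7.5a to GRCh38 (Ensembl 95), counted them with HTSeq 0.11.0 and compared the groups with DESeq2 1.22.0 in R 3.5.3. The paper's methods also name a BWA alignment with scaling by the number of reads, which the steps of that comparison do not list. HTSeq's default setting leaves reads uncounted where genes overlap on the same strand.

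The deposited table holds, per gene, a base mean, which is a signal in normalized counts that the authors averaged over the libraries of their fit. Whether these were the 6 cultures alone is not given in the sources used here. The table's log2 fold changes, standard errors, Wald statistics, p-values and adjusted p-values are the authors' own comparison and were not used. There are no values per culture, so the planned edgeR test of levamisole against vehicle was not run.

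From the base means, levels per kilobase, ranks, shares and counts of detected genes (base mean of at least 5) were computed with Python 3.11.15, pandas 2.3.3 and NumPy 2.4.6, and figures were drawn with matplotlib 3.10.9. The percentile step was tested on simulated data. Lengths, positions and overlapping exons come from GENCODE 44 on GRCh38, a later annotation than the authors', and 20599 of 20745 gene identifiers matched. The genes and lists were chosen with earlier results of these data known. The genes named are the 9 genes, the GADD45 and sestrin families and the genes of highest and lowest base mean in each list. The remaining genes, among them several cell type markers, were named after their values were seen. Alternatives were other base mean minimums, reference sets of genes, transcript lengths and the sum without mitochondrially encoded genes. A few results on listed genes are not reported here.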

Additional observations from a re-analysis of the deposited data

How the results depend on the processing

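No paired analysis was possible because only means over all libraries were used, with no value per culture, and for the same reason no replicate could be left out. All 9 genes were detected at base mean minimums of 1, 10 and 50 as at 5. Of the relatives, 60 were detected at a minimum of 5, 63 at 1, 59 at 10 and 48 at 50. The count of the 9 genes above the median level was 9 per kilobase, without division by length, with no filter on low values and with the median transcript length, and 8 among protein-coding genes alone. The summed level of the 9 genes was 0.205% of all base means and 0.314% without mitochondrially encoded genes, which follows from the smaller sum. Without counts per library, the precision of a pooled base mean is unknown.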
